A study of Capra hircus with 2 samples.

Results

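The let-7 family of microRNAs (miRNAs), with its close relative miR-98, was measured in the testicular cells of 5-month-old Saanen dairy goats. Taken from 3 testes of 3 goats, the cells were released with digestive enzymes and were plated overnight so that Sertoli and myoid cells would attach and stay behind. The cells that stayed afloat were sorted with magnetic beads into a CD49f-positive and a CD49f-negative fraction. CD49f, or integrin alpha-6, is a surface marker with which spermatogonial stem cells are commonly enriched, and it is the only label that separates the groups. Both groups are otherwise unmodified primary cells, no treatment is named for either, and whether the goats were pooled is not stated. Each group had 1 library of small RNA, although the series text speaks of triplicates, so replicates check none of the differences below and p-values are not given; values given for a group of cells are those of its library. Members were the table entries whose miRNA name, without species prefix, copy number and arm, was let-7a, let-7b, let-7c, let-7d, let-7e, let-7f, let-7g, let-7i or miR-98. They came to 36 of 2599 entries in CD49f-positive cells, against 36 of 2338 in CD49f-negative cells. These make up 18 of the 1814 combinations of miRNA name and arm found in either.

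A miRNA is cut from a hairpin precursor whose 5p and 3p arms can each give a mature strand, and the mature strand guides repression of messenger RNAs that pair with its seed near the 5′ end. In animals the let-7 miRNAs are known to accumulate as cells differentiate and to repress growth regulators such as the RAS, MYC and HMGA2 messenger RNAs. The RNA-binding protein LIN28, which marks pluripotent cells and undifferentiated spermatogonia, blocks processing of let-7 precursors and is itself a let-7 target.

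The 9 mature 5p strands are printed to show what joins the family and how little separates its members. Each is the most abundant sequence of its arm as the authors' tables list it, 5′ to 3′, with T in place of U, and the capitals mark the seed, bases 2 to 8.
let-7a-5p: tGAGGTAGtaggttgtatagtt
let-7b-5p: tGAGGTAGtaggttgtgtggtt
let-7c-5p: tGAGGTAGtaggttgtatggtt
let-7d-5p: aGAGGTAGtaggttgcatagtt
let-7e-5p: tGAGGTAGgaggttgtatagtt
let-7f-5p: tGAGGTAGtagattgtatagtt
let-7g-5p: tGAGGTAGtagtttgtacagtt
let-7i-5p: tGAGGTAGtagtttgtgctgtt
miR-98-5p: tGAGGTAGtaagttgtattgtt
All 9 are 22 bases long, have the same seed and were listed with the same sequence in both libraries. With positions counted from 1 at the 5′ end and let-7a-5p given first, let-7c-5p differs by A19G, let-7e-5p by T9G and let-7f-5p by G12A. let-7b-5p differs by A17G and A19G, let-7d-5p by T1A and T16C, let-7g-5p by G12T and T18C, and miR-98-5p by G11A and A19T. let-7i-5p stands farthest from let-7a-5p, with G12T, A17G, T18C and A19T. Of the 36 pairs of members, 4 differ at 1 base and the most distant differ at 6, so a single base separates some members.

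The family was read from 12 goat hairpins on 7 chromosomes. The genome build is not given in the sources used here, and coordinates are those of the deposited tables. Chromosome 8 carries let-7a-1 at chr8:83553954-83554053, let-7f-1 at chr8:83554301-83554410 and let-7d at chr8:83556514-83556618, all on the plus strand. Only 247 bases lie between let-7a-1 and let-7f-1, and 2103 between let-7f-1 and let-7d. On the minus strand of chromosome 5, let-7b at chr5:107026884-107026980 and let-7a-3 at chr5:107027678-107027783 lie 697 bases apart, and let-7i stands alone at chr5:49411438-49411545. The X chromosome holds miR-98 at chrX:84904958-84905076 and let-7f-2 at chrX:84905862-84905944, both on the minus strand with 785 bases between them. Another 3 members neighbour hairpins of the miR-99 and miR-100 group. let-7c at chr1:19222369-19222476, minus strand, lies 644 bases from miR-99a. let-7a-2 at chr15:31097574-31097723, minus strand, lies 5440 bases from miR-100. let-7e at chr18:55857872-55857980, plus strand, lies 85 bases from miR-99b and 385 from miR-125a. let-7g at chr22:48418548-48418654, plus strand, has no other member near it. The RefSeq goat annotation (assembly ARS1.2, used for names and neighbours only) has an entry for each of the 9 names, of which 3 overlap another gene. There let-7g overlaps WDR82, miR-98 overlaps HUWE1 and let-7c overlaps a long non-coding RNA gene.

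The 3 let-7a hairpins are printed because they carry the same mature strand, in capitals, inside different flanks, and the mature read cannot tell which of them it came from.
let-7a-1 hairpin: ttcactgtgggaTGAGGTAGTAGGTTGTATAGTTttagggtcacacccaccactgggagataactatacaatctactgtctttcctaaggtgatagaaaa
let-7a-2 hairpin: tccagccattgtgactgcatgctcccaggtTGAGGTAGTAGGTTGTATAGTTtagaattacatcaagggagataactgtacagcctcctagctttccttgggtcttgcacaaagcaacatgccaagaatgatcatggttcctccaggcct
let-7a-3 hairpin: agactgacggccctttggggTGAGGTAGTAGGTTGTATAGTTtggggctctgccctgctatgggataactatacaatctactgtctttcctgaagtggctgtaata
The authors split such a read between the hairpins it matches, and 18 of the 36 entries of each library hold fractions of reads. let-7a-1 kept 33.2% of the reads that matched it in each library, let-7a-2 33.1% and let-7a-3 35.1% in CD49f-positive cells, against 35.2% in CD49f-negative cells. let-7f-1 kept 49.9% and let-7f-2 50.6% in CD49f-positive cells, against 49.5% and 50.4% in CD49f-negative cells. The hairpins of a name thus held nearly even parts of its shared reads. let-7c kept 46.7% in CD49f-positive cells, against 47.4% in CD49f-negative cells although it has 1 hairpin, so many of its reads matched other hairpins as well. let-7e kept 86.0% in CD49f-positive cells, against 79.2% in CD49f-negative cells, the only hairpin whose share differed by more than 1 percentage point between them. The other 5 hairpins, let-7b, let-7d, let-7g, let-7i and miR-98, kept at least 94.4% in both libraries. Levels are therefore given below per mature name, summed over hairpins. At let-7e, the log2 ratio (CD49f-positive over negative) was 0.27 with every matching read counted in full and 0.40 for the 5p reads as the authors split them.

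**Figure D1:**
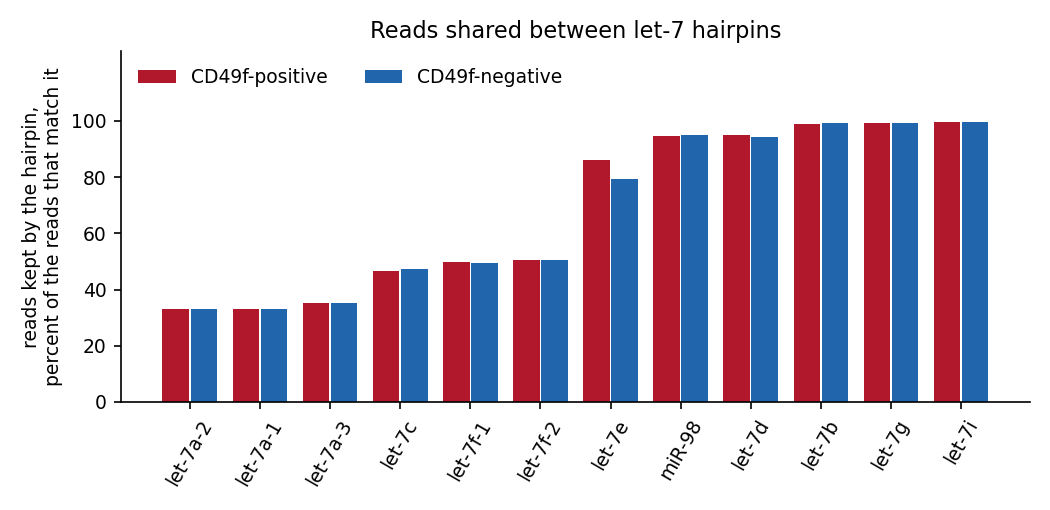
Percent of the reads matching each let-7 family hairpin that the authors' splitting left at it, in CD49f-positive cells (red) and CD49f-negative cells (blue). The let-7a hairpins keep 33.1% to 35.2% and the let-7f hairpins 49.5% to 50.6%, and let-7e is the hairpin whose libraries stand apart.

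The CD49f-positive library held 8196507 reads under miRNA names and the CD49f-negative library 3064462, a depth ratio of 2.67. Reads with a mismatch made up 32.7% of them in CD49f-positive cells, against 36.0% in CD49f-negative cells. The lists of miRNAs known from particular cells differed most for miR-34b, miR-34c and the miR-449 group of meiotic and post-meiotic germ cells, all 5 of which had reads. That list took 2.25% of CD49f-positive reads and 11.4% of CD49f-negative reads, led by miR-34c-5p. Its 7 arms with at least 100 reads were all at least 2-fold lower, where 24.6% of all 301 such arms were. The smooth muscle, myoid and fibroblast list, led by miR-143-3p, took 23.0% of CD49f-positive and 19.5% of CD49f-negative reads with all 5 names present, although the plating was meant to remove myoid cells. Most of that list's reads were miR-143-3p, with a log2 ratio of 0.26. Of its 8 arms with at least 100 reads, 0 were at least 2-fold higher and 2 at least 2-fold lower. These are near the shares over all 301 arms, 1.99% higher and 24.6% lower. Endothelial miR-126, led by miR-126-3p, took 1.43% of CD49f-positive and 0.755% of CD49f-negative reads. Its 3p arm had a log2 ratio of 0.92 and its 5p arm 0.99, both just under 2-fold. TMM and median-of-ratios scaling, given below, take both past it. The 3 red blood cell names, led by miR-451-5p, took 0.296% of CD49f-positive and 0.372% of CD49f-negative reads, and the 5 white blood cell names, led by miR-342-3p, 0.0616% of CD49f-positive and 0.0926% of CD49f-negative reads. Sertoli miR-202, led by miR-202-5p, took 0.0320% of CD49f-positive and 0.0823% of CD49f-negative reads. At least 2-fold lower was 1 of its 2 arms, where 24.6% of all arms were. Of 6 epithelial names, led by miR-200b-3p, miR-205 was at 0 in both libraries. The list took 0.00316% of CD49f-positive and 0.00933% of CD49f-negative reads. Its 1 arm of at least 100 reads was at least 2-fold lower, where 24.6% of all arms were. Counts of 1 or 2 arms are too small to set against that share. None of the 2 endothelial, 4 red and 5 white blood cell arms with at least 100 reads differed by 2-fold with an interval that excludes 1. By that rule 1.99% of all 301 arms were higher and 24.6% lower. CD49f itself is a protein that these libraries do not measure, and the part of any of these cells in the let-7 levels was not tested. A smaller number of cells of a type and less RNA per cell cannot be told apart in such bulk samples.

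Together the 18 member arms took 5.38% of the named reads in CD49f-positive cells (441046 reads, 95% interval 5.37 to 5.40), against 3.90% in CD49f-negative cells (119662 reads, 3.88 to 3.93). The family share was larger in CD49f-positive cells by 1.38-fold, a log2 ratio of 0.46 (95% interval 0.45 to 0.47). These and all later intervals are exact binomial ones. They cover counting error only: reads of PCR products without molecular identifiers are not independent molecules, and the spread between samples was not measured. The sum does not depend on how reads were shared out within the family. Known goat hairpins held 99.97% of the family's reads in CD49f-positive cells, against 99.98% in CD49f-negative cells, in 24 of the 36 entries of each. Without the miR-34 and miR-449 arms of the germ cell list in the totals, an alternative chosen after seeing the data, the family's log2 ratio was 0.32.

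Nearly all of this came from 5p strands. let-7f-5p led the family in CD49f-positive cells with 114021 reads or 1.39% (95% interval 1.38 to 1.40), against 27661 reads or 0.903% (0.892 to 0.913) in CD49f-negative cells. let-7a-5p had 108656 reads or 1.33% (1.32 to 1.33) in CD49f-positive cells, against 28062 reads or 0.916% (0.905 to 0.926) in CD49f-negative cells. let-7g-5p had 99698 reads or 1.22% (1.21 to 1.22) in CD49f-positive cells, against 28736 reads or 0.938% (0.927 to 0.949) in CD49f-negative cells. Each of these 3 strands had a larger share in CD49f-positive cells. By rank among all arms, let-7f-5p stood at 8 in CD49f-positive cells, against 14 in CD49f-negative cells, let-7a-5p at 9 in CD49f-positive and 12 in CD49f-negative cells, and let-7g-5p at 11 in both. let-7i-5p had 72224 reads or 0.881% (0.875 to 0.888) in CD49f-positive cells, against 22407 reads or 0.731% (0.722 to 0.741) in CD49f-negative cells. let-7b-5p had 30671 reads or 0.374% (0.370 to 0.378) in CD49f-positive cells, against 8351 reads or 0.273% (0.267 to 0.278) in CD49f-negative cells. For both of these, too, the CD49f-positive share was the larger.

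The other 4 members were scarcer than let-7b-5p in both libraries. let-7c-5p had 7663 reads or 0.0935% of CD49f-positive reads and 2144 reads or 0.0700% of CD49f-negative reads. let-7e-5p had 3546 reads or 0.0433% in CD49f-positive cells, against 994 reads or 0.0324% in CD49f-negative cells. In these, too, the CD49f-positive share was the larger. miR-98-5p had 2219 reads or 0.0271% (0.0260 to 0.0282) in CD49f-positive cells, against 548 reads or 0.0179% (0.0164 to 0.0194) in CD49f-negative cells. let-7d-5p was the scarcest 5p strand, with 1375 reads or 0.0168% (0.0159 to 0.0177) in CD49f-positive cells, against 331 reads or 0.0108% (0.00967 to 0.0120) in CD49f-negative cells. Although let-7d lies in the same 3-hairpin stretch of chromosome 8 as let-7a-1 and let-7f-1, its mature strand was read far less often than theirs in both libraries. miR-98-5p was likewise far scarcer than let-7f-5p, one of whose hairpins neighbours its own on the X chromosome.

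**Figure D2:**
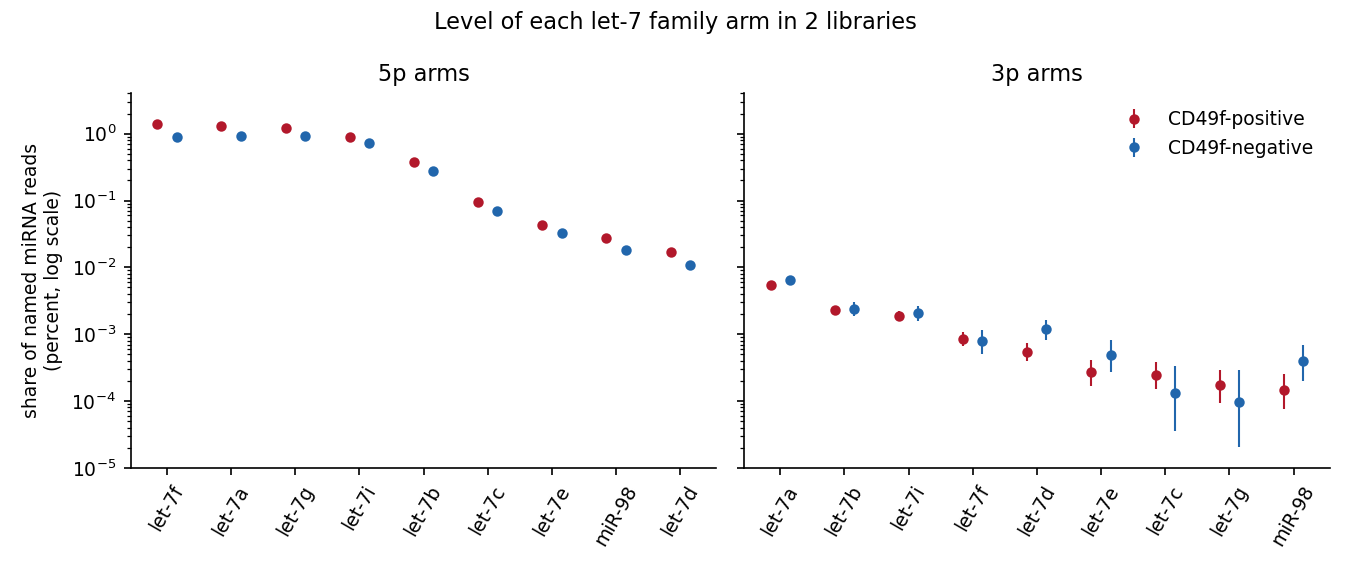
Share of named miRNA reads (percent, log scale) of each let-7 family 5p arm (left) and 3p arm (right) in CD49f-positive cells (red) and CD49f-negative cells (blue), 1 library each, with exact 95% intervals for counting error. Every 5p arm sits higher in CD49f-positive cells, from let-7f-5p with 1.39% in CD49f-positive and 0.903% in CD49f-negative cells down to let-7d-5p with 0.0168% in CD49f-positive and 0.0108% in CD49f-negative cells.

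As log2 ratios (CD49f-positive over negative), the 9 5p strands lay between 0.27 and 0.63. let-7d-5p had the highest value, 0.63 (95% interval 0.46 to 0.81), followed by let-7f-5p with 0.62 (0.61 to 0.64) and miR-98-5p with 0.60 (0.46 to 0.74). let-7a-5p had 0.53 (0.51 to 0.55) and let-7b-5p 0.46 (0.42 to 0.49). let-7c-5p had 0.42 (0.35 to 0.49) and let-7e-5p 0.42 (0.31 to 0.52). let-7g-5p had 0.38 (0.36 to 0.39), and let-7i-5p the lowest, 0.27 (0.25 to 0.29). The 3 highest ratios cannot be ordered within counting error, whereas let-7f-5p, let-7a-5p, let-7g-5p and let-7i-5p are separated from each other. An arm was called higher or lower if it had at least 100 reads in the sum of both libraries, at least a 2-fold ratio and an interval that excludes 1. Of the 18 member arms, 12 reached 100 reads, the 9 5p strands and the 3p strands of let-7a, let-7b and let-7i. By this rule 0 of the 12 were called higher, where 1.99% of all 301 arms with 100 reads were, and 0 were called lower, where 24.6% were. With a 1.5-fold rule, 3 members were called higher, miR-98-5p, let-7d-5p and let-7f-5p, where 7.97% of all arms were. The median log2 ratio of the 12 was 0.42 and 9 of them lay above 0, whereas the median over all 301 arms was -0.43 with 75 above 0.

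The size of the ratio depends on the scaling. Trimmed-mean (TMM) scaling raised every log2 ratio by 0.45 and median-of-ratios scaling by 0.59, which put the median over all arms at 0.01 and 0.16. The summed family then stood at 0.91 with TMM and 1.06 with median-of-ratios scaling, so that its distance from the median arm was unchanged. With TMM, miR-98-5p, let-7d-5p and let-7f-5p were called higher, 3 of 12 members where 8.97% of all arms were. With median of ratios, all 5p strands but let-7g-5p and let-7i-5p were, 7 of 12 where 11.3% of all arms were. TMM over all arms with a read, an alternative chosen after seeing the data, called all 9 5p strands higher, where 16.3% of all arms were.

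**Figure D3:**
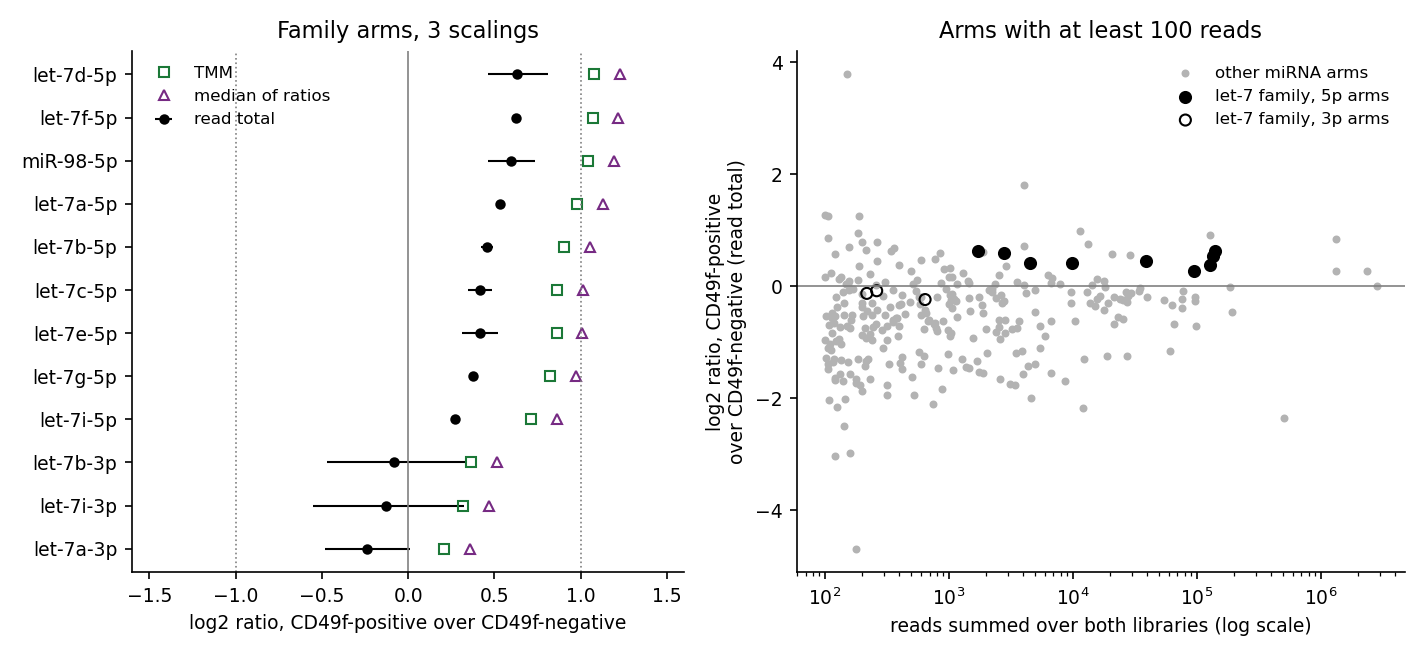
Left, log2 ratio (CD49f-positive over negative) for the 12 family arms with at least 100 summed reads under the read total (dots, with 95% counting intervals), TMM and median-of-ratios scaling, with dotted lines at 2-fold. Right, the same ratio under the read total against summed reads for arms with at least 100 reads that had reads in both libraries; the 5p family arms (filled) lie between 0.27 and 0.63, above the median of -0.43 over all 301 arms.

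Ratios within the family do not depend on the scaling of the libraries, and by these its make-up differed between them. let-7f-5p made up 25.9% of the family's 5p reads in CD49f-positive cells (25.8 to 26.0) and 23.2% in CD49f-negative cells (23.0 to 23.4). let-7a-5p made up 24.7% (24.6 to 24.8) of the CD49f-positive family and 23.5% (23.3 to 23.8) of the CD49f-negative family. let-7g-5p made up 22.7% (22.5 to 22.8) of the CD49f-positive family and 24.1% (23.9 to 24.3) of the CD49f-negative family. let-7f-5p and let-7a-5p thus held more of the family in CD49f-positive cells, and let-7g-5p held less. let-7i-5p made up 16.4% (16.3 to 16.5) of the CD49f-positive family and 18.8% (18.6 to 19.0) of the CD49f-negative family, the widest gap towards the CD49f-negative side. On a log2 scale within the family, let-7f-5p stood at 0.16 and let-7a-5p at 0.07, let-7g-5p at -0.09 and let-7i-5p at -0.20. The other 5 members had intervals that include 0. Both strands with smaller CD49f-positive shares, let-7g-5p and let-7i-5p, carry G12T and T18C relative to let-7a-5p. Neither has another family hairpin near its own, but that also holds for let-7c and let-7e, whose intervals include 0. The strands of let-7f, let-7a, let-7g and let-7i together made up 89.7% of the CD49f-positive family and 89.6% of the CD49f-negative one.

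The order of the members was let-7f, let-7a, let-7g, let-7i in CD49f-positive cells; it was let-7g, let-7a, let-7f, let-7i in CD49f-negative cells. From let-7b down, both libraries had the order let-7b, let-7c, let-7e, miR-98, let-7d. In the CD49f-negative library, let-7a-5p and let-7f-5p had overlapping intervals and cannot be ordered. Among reads without mismatch, the first 3 in CD49f-negative cells were let-7g with 23359 reads, let-7f with 23223 and let-7a with 21355. There let-7g and let-7f are too close to be ordered within counting error. let-7f was the most abundant in CD49f-positive cells in that count too, with 101840 reads against 87664 for let-7g.

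**Figure D4:**
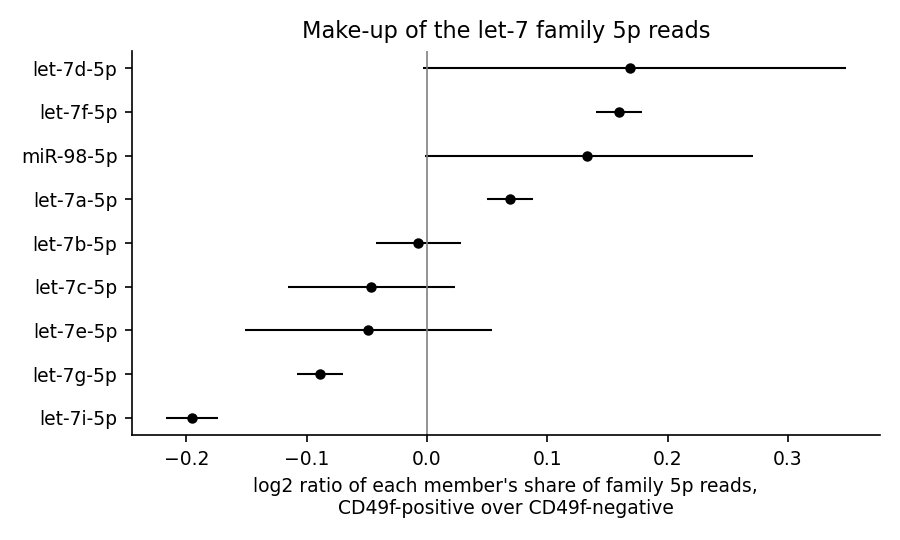
For each member (rows), the log2 ratio between CD49f-positive and CD49f-negative cells of its share of the family's 5p reads, with 95% counting intervals; values above 0 mean a larger share in CD49f-positive cells. let-7f-5p and let-7a-5p lie above 0 at 0.16 and 0.07, and let-7g-5p and let-7i-5p below 0 at -0.09 and -0.20.

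The 3p strands, which are the passenger strands of this family, were rare. Their sum was 973 reads or 0.0119% of CD49f-positive reads and 428 reads or 0.0140% of CD49f-negative reads, a log2 ratio of -0.24 (95% interval -0.40 to -0.07). The share was the smaller in CD49f-positive cells with the read total as denominator, but the scalings above raise it past 0. let-7a-3p had 447 reads in CD49f-positive cells, against 197 in CD49f-negative cells, with a log2 ratio of -0.24 (-0.48 to 0.01). let-7b-3p had 188 reads and let-7i-3p 155 reads in CD49f-positive cells, against 74 and 63 in CD49f-negative cells, with log2 ratios of -0.08 and -0.13. The intervals of all 3 include 0, and TMM and median-of-ratios scaling put all 3 above 0, so no direction can be given for them. The other 6 had fewer than 100 reads in the sum of both libraries. let-7f-3p had 69.8 reads, let-7c-3p 20 and let-7g-3p 14 in CD49f-positive cells, against 24.2, 4 and 3 in CD49f-negative cells, and their intervals include 0. let-7d-3p had 45 reads in CD49f-positive cells, against 36 in CD49f-negative cells, let-7e-3p had 22 in CD49f-positive and 15 in CD49f-negative cells, and miR-98-3p had 12 in each. Given the depth ratio of 2.67 and with the read total as denominator, the log2 ratios of these last 3 were below 0. They were -1.10 for let-7d-3p (95% interval -1.76 to -0.42), -0.88 for let-7e-3p and -1.42 for miR-98-3p (-2.70 to -0.14). The interval of let-7e-3p includes 0. TMM raises every value by 0.45, which takes the upper ends for let-7d-3p and miR-98-3p past 0, so their direction depends on the scaling within counting error. With a minimum of 10 reads in place of 100, let-7d-3p and miR-98-3p were called lower, 2 of 18 arms where 26.4% of all arms were.

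Set against the 5p strand of the same name, the 3p share does not depend on scaling. In the whole family, 3p strands made up 0.221% of the family's reads in CD49f-positive cells (0.207 to 0.235), against 0.358% in CD49f-negative cells (0.325 to 0.393). The log2 ratio of 3p reads therefore stood 0.70 below that of 5p reads, a difference of -0.70 (95% interval -0.86 to -0.53). let-7d had by far the highest 3p share, 3.17% (2.32 to 4.22) in CD49f-positive cells, against 9.80% (6.97 to 13.3) in CD49f-negative cells. The difference of its log2 ratios was -1.73 (-2.42 to -1.03). miR-98 had 0.538% of its reads on the 3p arm in CD49f-positive cells, against 2.14% in CD49f-negative cells, a difference of -2.02 that rests on 12 reads in each. For let-7a the 3p share was 0.410% in CD49f-positive cells, against 0.697% in CD49f-negative cells, a difference of -0.77 (-1.02 to -0.52). let-7b, with -0.54, let-7e, with -1.30, and miR-98 also had intervals below 0. let-7f with -0.53, let-7i with -0.40, let-7c with 0.35 and let-7g with 0.26 had intervals that include 0. In all, 7 of 9 members lay below 0 with a median of -0.54. Among 87 other miRNAs with at least 1000 reads on the major and at least 10 on the minor arm, 43 had a minor arm below the major one. Their median difference was 0.01, with quartiles of -0.39 and 0.45, against quartiles of -1.30 and -0.40 in the family. Several of these miRNAs are named in other paragraphs and have a major arm with a log2 ratio above 0, as the family's 5p strands do. Their differences were -1.80 for miR-145, -1.03 for miR-143, -0.91 for miR-99a, -0.34 for miR-450b, -0.26 for miR-222 and 0.07 for miR-126. A lower minor arm is thus not particular to the family.

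**Figure D5:**
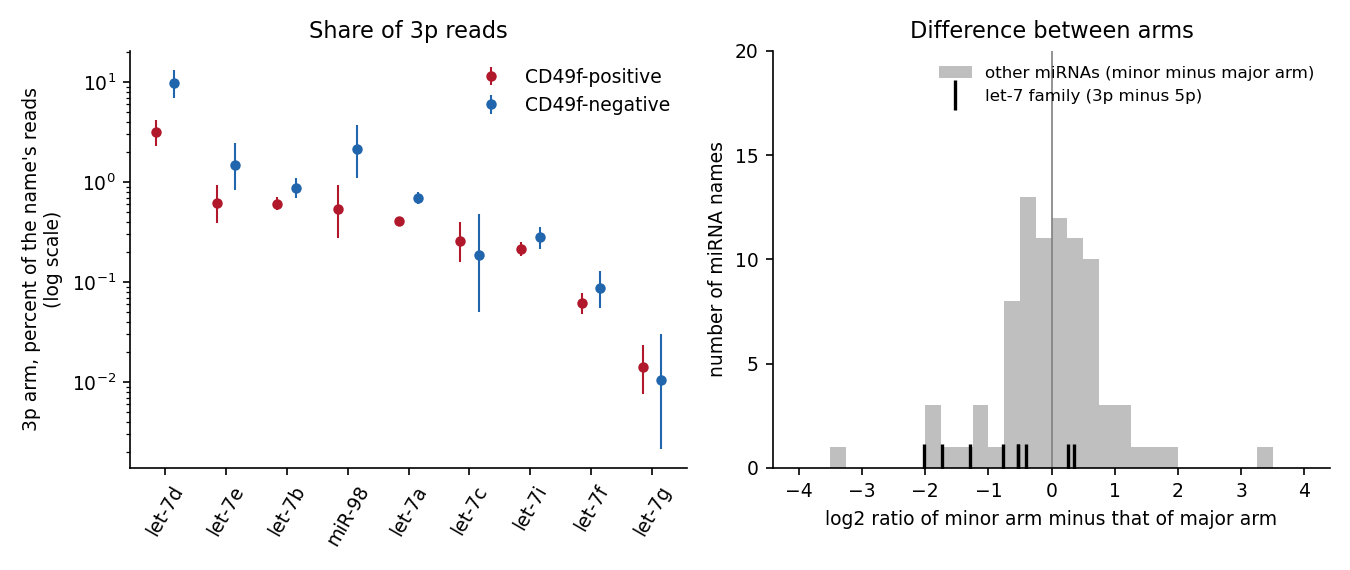
Left, 3p reads as a percent of each member's reads (log scale) in CD49f-positive cells (red) and CD49f-negative cells (blue), with exact 95% counting intervals. Right, the log2 ratio of the minor arm minus that of the major arm for 87 other miRNAs (grey) and the 9 family members (black marks). Of the members 7 lie below 0, and of the other miRNAs 43.

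At the let-7a-1 and let-7f-2 hairpins the listed 3p strand of CD49f-positive cells did not match the hairpin at its last base. That base is shown here in capitals because it decides whether a read counts as mismatched.
let-7a-3p at the chromosome 8 hairpin, listed: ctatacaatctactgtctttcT
let-7a-3p at the chromosome 8 hairpin, hairpin: ctatacaatctactgtctttcC
let-7f-3p at the chromosome X hairpin, listed: ctatacagtctactgtctttcT
let-7f-3p at the chromosome X hairpin, hairpin: ctatacagtctactgtctttcC
With the hairpin's base first, both differ by C22T, counted from the 5′ end of the strand. In CD49f-negative cells the listed 3p strands of these hairpins also held 1 mismatch each, whose position was not compared. The listed 3p strand of let-7f-1 also held a mismatch in both libraries, and those of let-7g and miR-98 held one in CD49f-positive cells alone. For let-7g the listed 3p strand had 6 copies in CD49f-positive cells, against 1 in CD49f-negative cells. For miR-98 it had 4 in CD49f-positive cells, against 3 in CD49f-negative cells. These copies are too few to show a difference between the libraries. Reads with a mismatch made up 55.5% of let-7a-3p reads in CD49f-positive cells, against 53.3% in CD49f-negative cells. For let-7f-3p it was 74.9% (62.4 to 84.0) in CD49f-positive cells, against 83.4% (62.6 to 95.3) in CD49f-negative cells. For both strands the intervals of the libraries overlap. These figures count every mismatch, not C22T alone.

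For all 9 5p strands the share of reads with a mismatch was smaller in CD49f-positive cells. It was above that of the 3p strand of the same name in both libraries for let-7b and let-7i, where 6.91% of let-7b-3p and 15.5% of let-7i-3p reads had a mismatch in CD49f-positive cells, against 10.8% and 22.2% in CD49f-negative cells. The intervals of the 2 strands of let-7i overlap in CD49f-negative cells. Over the family, 17.3% of CD49f-positive and 23.0% of CD49f-negative reads had a mismatch, while outside it 33.6% of CD49f-positive and 36.5% of CD49f-negative reads did. let-7i-5p had the most, 30.2% (29.9 to 30.5) in CD49f-positive cells, against 33.8% (33.2 to 34.4) in CD49f-negative cells. let-7f-5p had the fewest, 10.7% (10.5 to 10.9) in CD49f-positive cells, against 16.0% (15.6 to 16.5) in CD49f-negative cells. The smallest gap was that of let-7d-5p, with 16.3% (14.4 to 18.4) in CD49f-positive cells, against 17.6% (13.6 to 22.1) in CD49f-negative cells, where the intervals overlap. The single listed sequence made up 71.2% of let-7g-5p reads in CD49f-positive cells, against 64.5% in CD49f-negative cells. It made up 65.0% of let-7f-5p reads in CD49f-positive cells, against 60.3% in CD49f-negative cells, and 35.5% of let-7b-5p reads in CD49f-positive cells, against 33.3% in CD49f-negative cells. The listed sequence also made up more of the reads in CD49f-positive cells for let-7a-5p, let-7e-5p, let-7i-5p and, with overlapping intervals, miR-98-5p. For let-7d-5p it made up 48.9% (46.2 to 51.6) in CD49f-positive cells, against 50.1% (44.6 to 55.7) in CD49f-negative cells, with overlapping intervals. No share is given for let-7c-5p, whose listed sequence is counted whole while many of its reads were split. Counting only reads without mismatch, the summed family had a log2 ratio of 0.49 and the 3p strands stood at -0.72 from the 5p strands.

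The hairpins beside 3 of the members did not show the same ratios as the members. The miR-99 and miR-100 group and the miR-125 group, another pair of families found beside let-7 genes in animals, were compared as their 5p strands. miR-99a-5p took 12.3% of CD49f-positive reads, against 10.2% of CD49f-negative reads, a log2 ratio of 0.28, while its neighbour let-7c-5p had 0.42. On chromosome 15, miR-100-5p took 25.4% of each library, a log2 ratio of 0.00 after rounding, while let-7a-5p, summed over its 3 hairpins, had 0.53. Beside let-7e-5p with 0.42, miR-99b-5p had -0.19 and miR-125a-5p -0.03, although all 3 lie within 1 short stretch of chromosome 18. miR-125b-5p, with a hairpin on each of chromosomes 1 and 15, had -0.67. In each case the member had the higher ratio, but the counts of all 3 members and of miR-99a-5p, miR-99b-5p and miR-100-5p hold fractions of reads that matched several hairpins. A lower ratio was also common outside the family: of 130 arms with at least 1000 reads, 9 lay above the summed family's ratio. The let-7e hairpin, where the splitting differed between the libraries, had 0.27 with every matching read counted in full.

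Arms outside the family were also searched for the most similar ratio. Of 130 with at least 1000 reads, 9 lay above the summed family's log2 ratio of 0.46 and 29 above 0, with a median of -0.27. The 5 nearest to the family were miR-145-3p with 0.56, miR-320a-3p with 0.36, miR-450b-5p with 0.58, miR-222-3p with 0.33 and miR-221-5p with 0.62. This likeness is a single ratio between 2 libraries, so it orders arms and shows no more.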

How the data were processed

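Small RNA libraries (Illumina TruSeq kit, GAIIx) of total RNA were deposited as 1 table per group. The authors, per the file headers and column description, matched them to miRBase hairpins of mammals, a goat genome and expressed sequences. Not given in the sources used here are the aligner, miRBase release and genome build. The deposited reads of a hairpin arm are expected counts, fractional where the authors split a read between hairpins, with no normalization. The copies of each listed sequence are a whole-number count, per the file headers, as is its number of mismatches.

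Here, reads were summed per miRNA name and arm and divided by all reads with a miRNA name. Unnamed entries, 45707 reads in CD49f-positive and 18827 in CD49f-negative cells, were left out. Ratios of these shares used a prior of 0.5 reads and exact conditional binomial (Clopper-Pearson) 95% intervals on rounded counts. With 1 library per group no test was run. The groups follow the surface marker label. Differences between arms used an exact conditional odds ratio. TMM (edgeR 4.0.16) and median of ratios (DESeq2 1.42.0, R 4.3.3) gave scaling factors only, over arms with at least 10 reads. The rest was done in Python 3.11.15 with SciPy 1.17.1, pandas 2.3.3, numpy 2.4.6 and matplotlib 3.10.9. The calling rule was run on simulated counts that held counting error only, so this cannot show how the rule does with spread between samples.

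Members, lists and alternatives were chosen with earlier results of these data known. Named outside the family were the neighbours listed, arms with the same seed, the leading arm of each cell list, and the 5 arms with at least 1000 reads whose ratio was nearest the family's.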

Additional observations from a re-analysis of the deposited data

Results flagged for a closer look

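Reads named let-7j or let-7k, which lie outside the 9 member names, came to 383 in CD49f-positive cells, against 138 in CD49f-negative cells. They drew attention because they carry the family's name but enter no comparison, and both exceed the limit of 3 reads that a count of 0 allows. CD49f-positive over CD49f-negative, their log2 ratio was 0.05 (95% counting interval -0.23 to 0.34), and the groups cannot be ordered.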

How the results depend on the processing

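The summed family kept its direction under every alternative run. Its log2 ratio of 0.46 became 0.91 with TMM, 1.06 with median of ratios, 0.77 without the 10 most abundant arms in the totals, 0.49 for reads without mismatch and 0.44 for copies of the listed sequence. Chosen after seeing the data were a total without miR-34 and miR-449 arms (0.32), TMM over all arms with a read (1.28) and TMM over arms with at least 1000 reads (0.71). In the same order, the median of 0.42 over family arms became 0.86, 1.01, 0.72, 0.45, 0.39, 0.28, 1.24 and 0.67, and it was 0.40 with known hairpins alone, 0.40 with a minimum of 10 reads and 0.46 with one of 1000. The count of members called higher, 0, became 3 with TMM (8.97% of all arms) and 7 with median of ratios (11.3% of all arms). It became 3 with a 1.5-fold rule (7.97% of all arms) and 9 with TMM over all arms, where 16.3% of all arms were. The count called lower, 0, became 2 with a minimum of 10 reads, let-7d-3p and miR-98-3p, where 26.4% of all arms were. let-7a-3p turned to 0.21, 0.36 and 0.069 with TMM, median of ratios and the total without 10 arms. let-7b-3p turned to 0.37, 0.51 and 0.23, and to 0.038 for copies, and let-7i-3p to 0.32, 0.47 and 0.18. Scalings add 1 constant to every ratio; for the other changes the cause was not tested. Of 96 values of single arms under alternatives, 76 kept direction and call, 10 passed 2-fold and 10 changed direction. The 3p minus 5p difference of -0.70 stayed below 0 for copies (-0.59) and for let-7a, let-7b and let-7i alone (-0.60). No paired analysis was possible because each group has 1 library and the labels give no replicate numbers; for the same reason no library could be left out. Depth limits the 6 3p strands under 100 reads.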

Other observations

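The tables list sequences close to the family under other names, printed to show how far they are from members, with the part that differs in capitals.
listed under let-7j: tgaggtagtagtttgtgctgttAT
listed under platypus let-7e: tgaggtagtagattgAatagtt
The let-7j sequence is the 22 bases of let-7i-5p with AT added at its 3′ end. It had 366 copies in CD49f-positive cells, against 111 in CD49f-negative cells, and its entry held 373 reads in CD49f-positive cells, against 129 in CD49f-negative cells. The entry named after platypus let-7e lay at the let-7f-1 hairpin of chromosome 8, and its sequence differs from let-7f-5p by T16A, with the base of let-7f-5p first and positions counted from the 5′ end. It held 74 reads in CD49f-positive cells, against 14 in CD49f-negative cells. It is counted by its name under let-7e-5p, which had 3546 reads in CD49f-positive cells, against 994 in CD49f-negative cells. Apart from let-7j, the family seed at bases 2 to 8 was found outside the member names in miR-6134-3p, with 2 reads in CD49f-negative cells and no entry with that seed in CD49f-positive cells.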
